A study of Mus musculus with 9 samples.

Results

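The Arp2/3 complex is the machine that starts a new actin filament as a branch on the side of an existing one. The actin-related proteins Arp2 and Arp3 mimic the end of a filament, the other subunits hold them against the mother filament, and cortactin binds the finished branch and stabilises it. The complex stays idle until an activator of the WASP, WAVE or WASH kind, some of them working under Rac or Cdc42, delivers an actin monomer to it. In the brain this branched actin builds the heads of dendritic spines, drives growth cones, membrane ruffles and endocytosis, and is used by microglia when they move and engulf debris.

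The 10 genes described here encode the subunits and cortactin and were taken by symbol: Actr2, Actr3, Arpc1a, Arpc1b, Arpc2, Arpc3, Arpc4, Arpc5, Arpc5l and Cttn. They are 10 of 26602 genes with at least 1 count, and all 10 were abundant enough to be tested. The midbrain containing the substantia nigra was sequenced from 4 DJ-1+/+ mice (WT in the sample labels) and 5 DJ-1-/- mice (DJ-1 KO in the labels), with 1 library per animal. The mice were 3 to 4 months of age, and the labels name no treatment. The DJ-1-/- mice are homozygous for 1 targeted allele of Park7, the DJ-1 gene, in every tissue, and the allele had been backcrossed for 7 generations to C57BL/6, so that the model is 1 knockout line of young animals, and both genotypes came from crosses of heterozygous mice. The sex of the mice is not given in the sample labels. The study listed midbrain genes with a p under 0.05 as dysregulated and then ran a pathway analysis. Actr2, Arpc1a and Cttn were among the molecules of that analysis, and so was Nckap1l, a gene of the WAVE activators. This puts the question of whether the genes of this complex differed between the genotypes.

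Libraries were made by 3′ mRNA-seq, which reads 1 tag near the end of each transcript, and carried unique molecular identifiers (UMIs), which remove PCR duplicates from the count. Totals were 841974 to 886085 UMI counts in DJ-1+/+ and 967751 to 1098125 in DJ-1-/- libraries, so that every DJ-1-/- library was deeper and depth and genotype cannot be told apart. Levels are given as cpm, the UMI count per 1000000 counts of its library, and 3 counts, the lowest level taken as detectable, equal 2.73 to 3.56 cpm. The label check held in every library, since Park7 averaged 135 cpm (SD 15.7, n = 4) in DJ-1+/+ mice against 20.4 cpm (SD 4.54, n = 5) for DJ-1-/- mice, without overlap. Some libraries stood apart in other respects. The summed markers of cerebellar neurons reached 660 cpm in DJ-1+/+ replicate 1 against 60.5 to 164 cpm in the other DJ-1+/+ libraries and 109 to 162 cpm in DJ-1-/- mice. Choroid plexus markers reached 642 cpm in DJ-1+/+ replicate 4 and 292 cpm in replicate 1, against 55.8 to 177 cpm in all other libraries. Xist, the RNA that coats the inactive X chromosome, exceeded 100 counts in 2 DJ-1+/+ and 4 DJ-1-/- libraries and had at most 2 counts in the remaining 3, which included DJ-1+/+ replicates 1 and 4. The range of levels in the deposited counts was narrow. The highest mean count of any gene was 1194, the 99th percentile of the 10770 genes with a mean of at least 20 counts was 263, and Actb, which encodes cytoplasmic beta-actin, was only 2.27 times as high as Arpc2.

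None of the 10 genes of the Arp2/3 complex was found to differ between the genotypes beyond the spread between mice. In edgeR's quasi-likelihood test over 18127 genes, no member had an adjusted p under 0.05 (Benjamini-Hochberg adjustment), where 0.00552% of all genes did, namely Park7 alone. No member had an unadjusted p under 0.05 either, against 2.82% of all genes. The libraries of the 2 genotypes overlapped for each member, against 1.25% of all genes without overlap. At such low shares, the lack of a call among 10 genes does not set them apart from other genes. The lowest unadjusted p of edgeR among the members was 0.0742, for Arpc1a, and all 10 adjusted p-values were 0.9999. Actr2 and Cttn, also in the study's pathway analysis, had unadjusted p-values of 0.700 and 0.624 in edgeR, and Nckap1l had 0.308. Why these lay above the study's cut-off of 0.05 was not tested. On the log2 scale (DJ-1-/- over DJ-1+/+) 5 members were on the higher side in DJ-1-/- mice and 5 on the lower side, from -0.16 for Arpc1a to 0.08 for Cttn. Their median log2 fold change was -0.0088, beside a median of 0.01 over all genes tested. The 95% interval of each member included 0, and the intervals ran from the narrowest, -0.16 to 0.17 on the log2 scale for Arpc2, to the widest, -0.27 to 0.43 for Cttn. Arpc1a and Arpc4 kept the same sign under all 19 alternative settings. The sign of the other 8 members changed under at least 1, for Arpc2 also with another normalization. In bulk tissue, fewer cells of a type and less RNA per cell cannot be told apart, and this holds for each value given here.

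**Figure D1:**
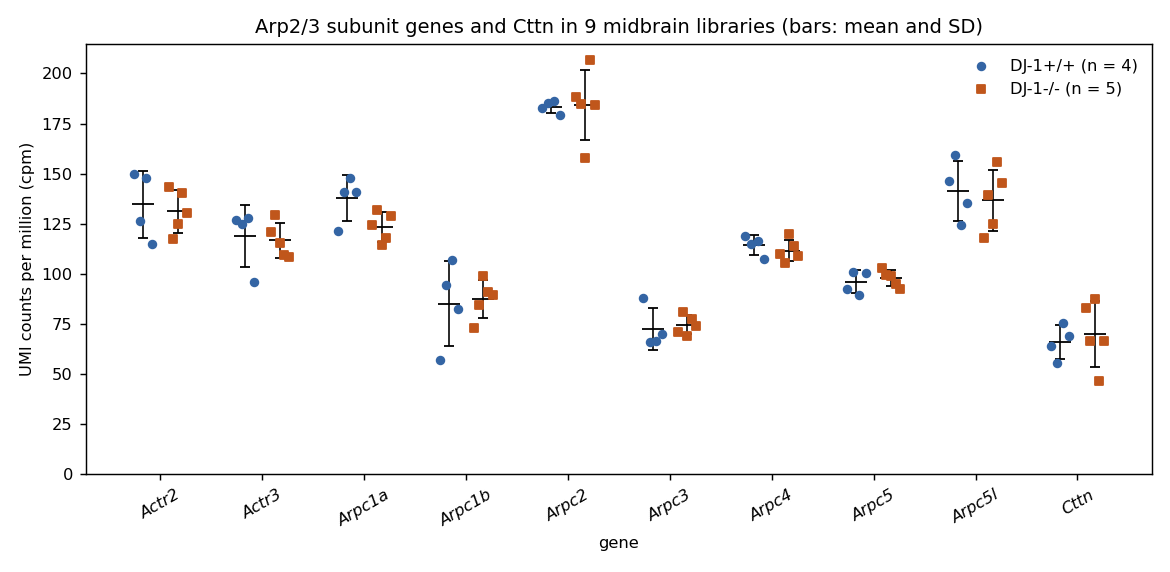
Level of each of the 10 genes (cpm, axis from 0) in the 4 DJ-1+/+ libraries (circles) and the 5 DJ-1-/- libraries (squares), with the mean and SD of each genotype. The circles and squares of every gene overlap, Arpc2 is the highest gene in all 9 libraries, and Arpc1b and Cttn are the most scattered for their level.

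The 2 actin-related proteins form the seed from which the branch grows. Actr2, on chromosome 11 (20062304 to 20112913, minus strand, GRCm38), encodes Arp2, which moves up against Arp3 when the complex is activated. It was at 149.6, 126.2, 148 and 115 cpm in DJ-1+/+ replicates 1 to 4 and at 143, 117, 125, 141 and 131 cpm in DJ-1-/- replicates 1 to 5. All DJ-1-/- libraries lay inside the DJ-1+/+ range. The mean of 135 cpm (SD 16.8, n = 4) in DJ-1+/+ stood against 131 cpm (SD 10.7, n = 5) for DJ-1-/-, a log2 fold change of -0.04 (standard error 0.09, 95% interval -0.24 to 0.16, adjusted p = 0.9999 in edgeR).

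Actr3, on chromosome 1 (125392905 to 125435727, minus strand), encodes Arp3, the partner of Arp2 in the seed. It had 127, 125, 128 and 95.9 cpm in DJ-1+/+ mice and 121, 129, 116, 109.5 and 108 cpm in DJ-1-/- mice. DJ-1+/+ replicate 4 was the lowest of all 9 libraries, and the other 3 DJ-1+/+ libraries were within 3 cpm of each other. Its log2 fold change was -0.02 (standard error 0.10, 95% interval -0.23 to 0.18, edgeR). Without DJ-1+/+ replicate 4, the library with the most choroid plexus markers, it was -0.12, and the unadjusted p of edgeR was 0.252. A processed pseudogene, Gm8822, matches the last 300 bases of at least 1 Actr3 transcript with 99% identical bases. It held 21 counts over the 9 libraries, at most 4 in any of them.

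Actr3b encodes a second form of Arp3 that is found mainly in the brain. It is not 1 of the 10 genes but fills the same place, and was read in nearly the same amount as Actr3. It was at 110.5, 142, 114 and 139 cpm in DJ-1+/+ and at 101, 117, 89.7, 113 and 150.1 cpm in DJ-1-/- mice, which gave a log2 fold change of -0.15 (standard error 0.13, 95% interval -0.42 to 0.13, edgeR). The chi-square per degree of freedom of its counts within the genotypes was 3.38, where counting error alone gives 1 on average.

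Arpc1 is the subunit that touches the mother filament and receives the activator, and it comes in 2 forms. Arpc1a and Arpc1b lie in a row on the plus strand of chromosome 5, Arpc1a from 145083830 to 145108761 and Arpc1b from 145114215 to 145130705, with 5453 bases between them. Arpc1a is the form common in neural tissue, and Arpc1b the form that blood cells and other immune cells depend on.

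Arpc1a showed the largest difference of the 10 genes. It was at 121, 141, 148 and 141 cpm in DJ-1+/+ and at 124, 132, 114.5, 118 and 129 cpm in DJ-1-/- mice. In DJ-1+/+ mice 3 libraries were above all 5 DJ-1-/- libraries, and replicate 1 was within their range. All 5 DJ-1-/- libraries were below the DJ-1+/+ mean of 138 ± 11.5 cpm (SD, n = 4), and their own mean was 123 ± 7.30 cpm (SD, n = 5). The DJ-1-/- level was 0.897 times that of DJ-1+/+ mice (95% interval 0.795 to 1.01), or -0.16 on the log2 scale (standard error 0.08, adjusted p = 0.9999 in edgeR), and this did not pass the test.

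The size of the Arpc1a value depended on which DJ-1+/+ mice were used. Without DJ-1+/+ replicate 1, the library with the cerebellar markers, the log2 fold change was -0.21 and the unadjusted p of edgeR was 0.0262, where 2.34% of all genes had such a p under 0.05. Without both replicates 1 and 4 it was -0.22 with an unadjusted p of 0.0447 in edgeR (2.66% of all genes under 0.05). In the 6 libraries with Xist, which also lack DJ-1+/+ replicates 1 and 4, it was -0.24 with an unadjusted p of 0.0355 in edgeR (2.9% of all genes under 0.05). Each of these settings leaves out replicate 1, the lowest DJ-1+/+ library for Arpc1a, and they share most libraries, so they are not separate tests. Without DJ-1+/+ replicate 3 it was -0.12 with an unadjusted p of 0.2 in edgeR. The adjusted p was at least 0.860 under every alternative run, and the part of cerebellar tissue, choroid plexus and sex in the value was not tested beyond these fits. The chi-square per degree of freedom of Arpc1a counts within the genotypes was 0.600.

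Arpc1b had 57.0, 94.3, 107 and 82.4 cpm in DJ-1+/+ mice and 73.1, 84.7, 99.03, 90.9 and 89.7 cpm in DJ-1-/- mice. The DJ-1+/+ libraries were the more scattered, with both the lowest and the highest value among them. The genotype difference of Arpc1b was 0.03 on the log2 scale (standard error 0.14, 95% interval -0.27 to 0.34, edgeR), and it changed sign to -0.11 without DJ-1+/+ replicate 1, so that no direction can be read from it. The last 300 bases of at least 1 Arpc1b transcript match the opposite strand of Pdap1 with 100% identical bases. Pdap1 had 146 to 216 counts per library. The counting setting for strand is not given in the sources used here, so that reads of Arpc1b and Pdap1 may not be fully separated.

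**Figure D2:**
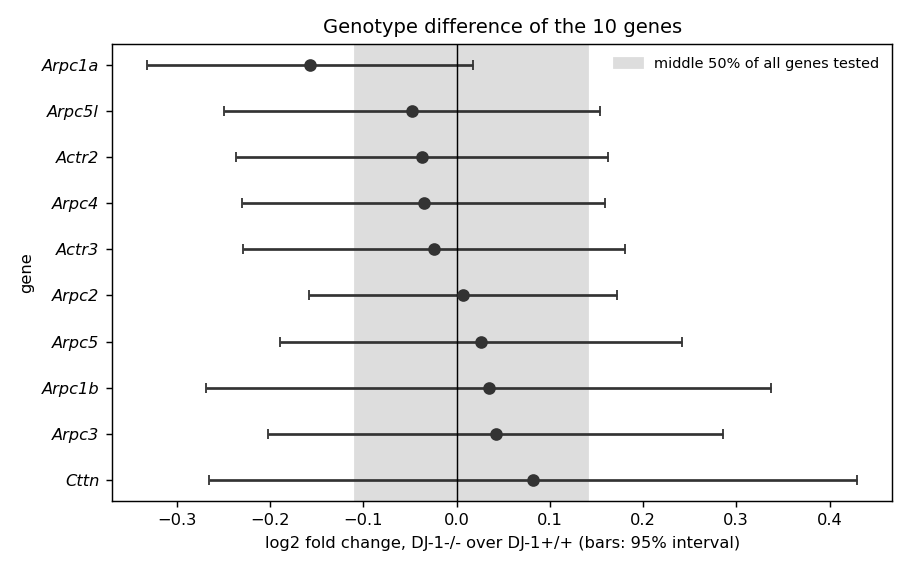
Log2 fold change of DJ-1-/- over DJ-1+/+ for each of the 10 genes with its 95% interval from edgeR's quasi-likelihood fit, over a grey band that holds the middle 50% of all 18127 genes (-0.11 to 0.14). All 10 intervals include 0, and only Arpc1a, at -0.16, lies outside the band.

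Arpc2 and Arpc4 form the core of the complex and hold most of its contact with the mother filament. Arpc2, on chromosome 1 (74236084 to 74268209, plus strand), was read most of the 10 genes. It was at 183, 185, 186 and 179 cpm in DJ-1+/+ mice, the tightest group of any member, and at 188, 185, 158, 207 and 184 cpm in DJ-1-/- mice. The DJ-1-/- libraries spread to both sides of the DJ-1+/+ values. For Arpc2 the difference was 0.01 on the log2 scale (standard error 0.08, 95% interval -0.16 to 0.17, edgeR), the narrowest interval of the 10 genes.

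Arpc4, on chromosome 6 (113378115 to 113390448, plus strand), gave 119, 115, 116 and 107 cpm in DJ-1+/+ and 110.1, 106, 119.7, 114 and 109 cpm in DJ-1-/- mice. In raw counts this was 95 to 101 in DJ-1+/+ and 110 to 116 in DJ-1-/- libraries, and the higher raw counts of the deeper DJ-1-/- libraries disappear once the totals are taken into account. Relative to the totals, the log2 fold change was -0.04 (standard error 0.09, 95% interval -0.23 to 0.16, edgeR). Arpc4 shares 190 bases of its end with Ttll3 on the same strand, which had 12 to 23 counts per library.

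Arpc3, on chromosome 5 (122391878 to 122414184, plus strand), sits beside Arp3 and is not needed for the core to assemble. It was the lowest of the subunit genes at 87.9, 65.9, 66.3 and 70.0 cpm in DJ-1+/+ and 71.1, 81.0, 69.1, 77.5 and 74.1 cpm in DJ-1-/- mice. DJ-1+/+ replicate 1 was the highest library, and the DJ-1-/- values lay between it and the other 3 DJ-1+/+ libraries or among the latter. For Arpc3 the difference was 0.04 on the log2 scale (standard error 0.12, 95% interval -0.20 to 0.29, edgeR). Gm42829, annotated as a sense intronic RNA inside Arpc3, had 14 to 38 counts.

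Arpc5 anchors Arp2 to the rest of the complex, and again there are 2 forms. Arpc5, on chromosome 1 (152766542 to 152775597, plus strand), had 92.6, 101, 89.6 and 100.4 cpm in DJ-1+/+ and 103, 99.3, 99.03, 95.1 and 92.6 cpm in DJ-1-/- mice. Its log2 fold change was 0.03 (standard error 0.10, 95% interval -0.19 to 0.24, edgeR). Arpc5l, on chromosome 2 (39005348 to 39015877, plus strand), was the more abundant form at 146, 159, 124 and 135 cpm in DJ-1+/+ and 118, 139, 125, 156 and 145 cpm in DJ-1-/- mice. Its log2 fold change was -0.05 (standard error 0.09, 95% interval -0.25 to 0.15, edgeR). For both forms the values of the genotypes were interleaved. The start of Arpc5l overlaps Rpl35 on the other strand, which had 56 to 112 counts, but 3′ reads come from the far end of the gene.

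Cttn, on chromosome 7 (144435733 to 144471009, minus strand), encodes cortactin, the substrate of Src kinases that binds Arp3 and protects branches from being taken apart. It was the lowest of the 10 genes, at 64.1, 55.7, 75.6 and 68.8 cpm in DJ-1+/+ and 83.1, 66.5, 87.7, 46.5 and 66.3 cpm in DJ-1-/- mice. The DJ-1-/- mice held both the highest and the lowest values, and their SD of 16.3 cpm (n = 5) was larger than the SD of 8.38 cpm (n = 4) in DJ-1+/+ mice. For Cttn the difference was 0.08 on the log2 scale (standard error 0.16, 95% interval -0.27 to 0.43, edgeR), the widest interval of the 10 genes.

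The levels of the 10 genes are given here on the narrow scale of these counts, and whether that scale draws levels, paralog shares and fold changes together was not tested. Over all 9 libraries the mean was 184 cpm for Arpc2, 139 for Arpc5l, 133 for Actr2, 129.8 for Arpc1a, 118 for Actr3, 113 for Arpc4, 97.0 for Arpc5, 86.5 for Arpc1b, 73.7 for Arpc3 and 68.3 for Cttn. A 3′ tag is read once per transcript, so these levels were not divided by transcript length, although capture may still differ between genes. Arpc2 was above Arpc5l, and Arpc4 above Arpc5, in 9 of 9 libraries. Arpc5l and Actr2, Actr2 and Arpc1a, and Actr3 and Arpc4 were in this order in only 5 of 9 libraries each. The order of these neighbours thus varied between libraries, and their difference was not tested. Arpc1a was above Actr3 in 7, Arpc5 above Arpc1b in 7, Arpc1b above Arpc3 in 8 and Arpc3 above Cttn in 6 of 9 libraries.

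With the paralogs added, the complex has 7 places, each filled once. The place of Arp3 (Actr3 and Actr3b) summed to a mean of 237 cpm, that of Arpc5 to 236 cpm and that of Arpc1 to 216 cpm, all above Arpc2 at 184 cpm. The places with 1 gene were lower, at 133 cpm for Arp2, 113 cpm for Arpc4 and 73.7 cpm for Arpc3. The 3 places with paralogs were the 3 highest, but each is a sum of 2 genes, which by itself favours a high rank. No single gene of a pair reached Arpc2. The sum of the 9 subunit genes without Cttn was 1084 cpm (SD 40.6, n = 4) for DJ-1+/+ mice and 1064 cpm (SD 30.5, n = 5) for DJ-1-/- mice, and these means are closer together than 1 SD of either group.

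The choice between paralogs was compared as a share of counts within each library, which does not depend on how depth is scaled. Arpc1b made up 37.7 ± 4.38% (SD, n = 4) of Arpc1 counts for DJ-1+/+ and 41.4 ± 3.67% (SD, n = 5) in DJ-1-/- mice. Single libraries ran from 32.0% in DJ-1+/+ replicate 1 to 46.4% in DJ-1-/- replicate 3. The difference of 3.69 percentage points gave a two-sided p = 0.222 in the exact permutation test and 0.524 after Benjamini-Hochberg adjustment over the 3 pairs. It was 1.77 points without DJ-1+/+ replicate 1, 0.465 points in the libraries with Xist and 0.376 points without DJ-1+/+ replicates 1 and 4. Arpc5l made up 59.5 ± 1.97% (SD, n = 4) of Arpc5 counts in DJ-1+/+ and 58.2 ± 3.63% (SD, n = 5) in DJ-1-/- mice (difference -1.32 points, exact permutation p = 0.524, adjusted p = 0.524). Actr3b made up 51.5 ± 5.93% (SD, n = 4) of Arp3 counts in DJ-1+/+ and 49.1 ± 5.67% (SD, n = 5) in DJ-1-/- mice (difference -2.40 points, exact permutation p = 0.524, adjusted p = 0.524). With 4 mice against 5 the smallest p this test can give is 0.0159.

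**Figure D3:**
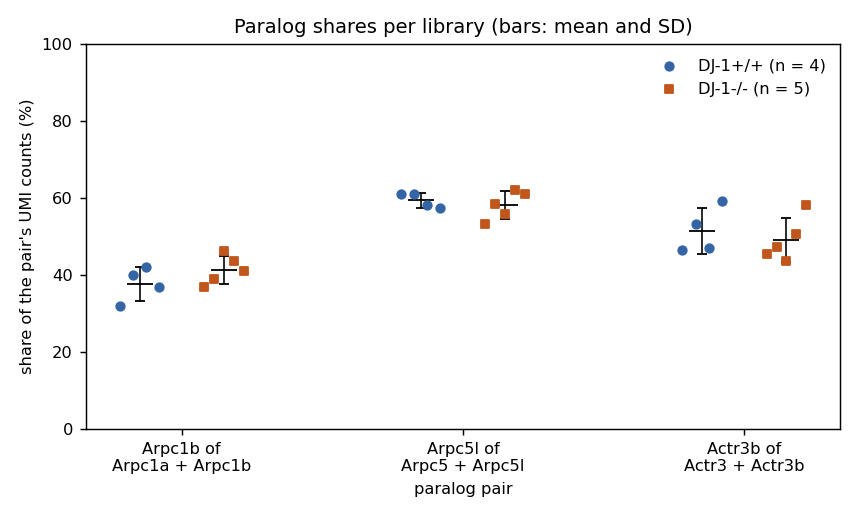
Share of a paralog in the UMI counts of its pair (percent, axis from 0 to 100) in each DJ-1+/+ library (circles) and DJ-1-/- library (squares), with mean and SD. Arpc1a outnumbers Arpc1b in every library, Arpc5l outnumbers Arpc5 in every library, the 2 Arp3 genes are about equal, and the genotypes overlap for all 3 pairs.

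The spread within the genotypes was itself uneven among the members. The chi-square per degree of freedom was 0.226 for Arpc5 and 0.228 for Arpc4, and it was under 1 for 5 of the 10 genes. Among the 5956 genes with a mean of 60 to 180 counts, its median was 0.966 and its quartiles 0.620 and 1.55 (7 degrees of freedom). Arpc1b at 2.53 and Cttn at 2.51 were above the upper quartile. These values are descriptions, and none was tested against 1.

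The other genes of actin assembly, with Actr3b among them, were examined as 6 lists of 68 genes, of which 67 passed the filter. In edgeR none of them had an unadjusted p under 0.05, beside 2.82% of all genes, and 34 were on the higher and 33 on the lower side in DJ-1-/- mice. Activators of the WASP family and the WAVE complex, which switch Arp2/3 on at the plasma membrane, had a median log2 fold change of -0.03 over 13 genes. They ran from -0.12 (standard error 0.09) for Cyfip1, the WAVE subunit that binds Rac, to 0.35 (standard error 0.33) for Nckap1l, the WAVE subunit of blood and microglial cells, which had only 4 to 17 counts. The 7 genes of the WASH complex, WHAMM and JMY, which act on endosomes and inner membranes, had a median of 0.07, from -0.11 for Jmy to 0.12 for Washc3.

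Genes that restrain the complex or remove branches (Arpin, the coronins, glia maturation factors and Pick1) had a median log2 fold change of 0.03 over 9 of 10 genes. Coro1c was lowest at -0.09 (standard error 0.08). Coro1b, with 0 to 6 counts, was at the detection floor, and Gmfg, with 0 to 2 counts, was not tested. The 14 upstream GTPases and adaptors had a median of -0.06. Trip10, an adaptor of Cdc42 at sites of endocytosis, was lowest at -0.51 (standard error 0.38) from 7 to 29 counts per library, and Rac2, the Rac of blood cells, had only 2 to 7 counts.

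Formins and other nucleators, which make unbranched filaments without Arp2/3, had a median log2 fold change of 0.00 over 16 genes. Spire2 was lowest at -0.16 (standard error 0.23). Fhod3 was highest at 0.30 (standard error 0.15), from a mean of 46.5 cpm (SD 4.71, n = 4) in DJ-1+/+ to 57.4 cpm (SD 8.21, n = 5) in DJ-1-/- mice. Its unadjusted p of 0.0523 in edgeR was the smallest of the 67 genes tested, and its adjusted p was 0.9999. Actins and profilins, which supply monomers, and capping protein, which closes filament ends, were listed together with the Arp3 gene Actr3b and had a median of 0.02 over 8 genes. Actb, the actin that the complex polymerises, averaged 424 cpm (SD 14.7, n = 4) for DJ-1+/+ mice against 414 cpm (SD 15.2, n = 5) for DJ-1-/- mice. Actg1, which encodes gamma-actin, had only 1 to 7 counts, and Pfn1, which encodes profilin, had 6 to 50 counts with a chi-square per degree of freedom of 10.7, so that neither can be judged from these counts.

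**Figure D4:**
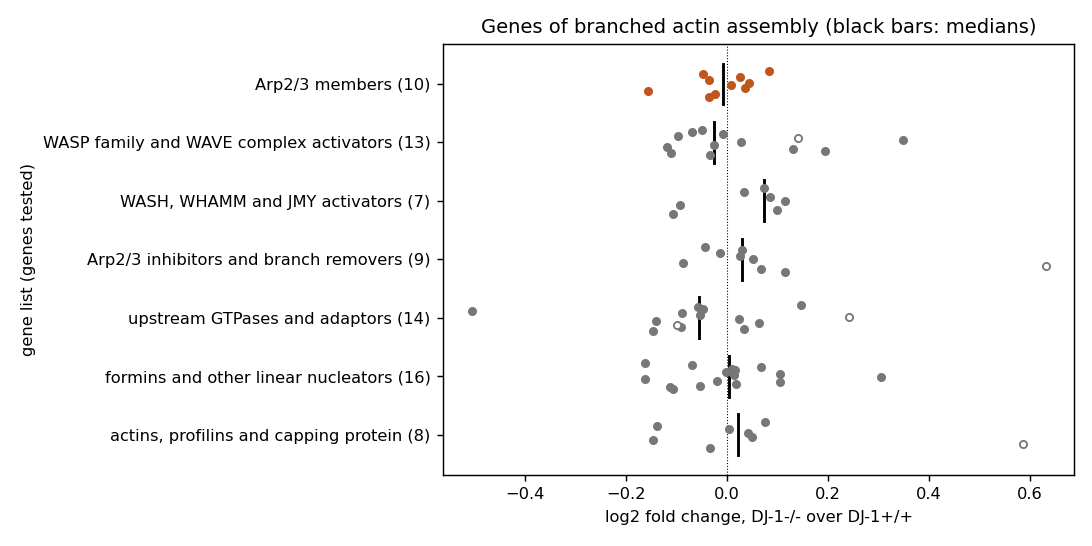
Log2 fold change (DJ-1-/- over DJ-1+/+) of each tested gene of the 10 Arp2/3 members (orange) and of 6 lists of related genes (grey), with the median of each list as a black bar and the number of genes tested in brackets. Open circles are genes with fewer than 10 counts in every library (Was, Coro1b, Rac2, Hcls1 and Actg1), and the medians lie between -0.06 and 0.07.

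Because cell types differ in their use of the complex, marker lists of the cell types in the tissue were set beside the members. Microglial markers summed to 645 to 671 cpm in DJ-1+/+ and 616 to 732 cpm in DJ-1-/- mice, and 0 of 10 had an unadjusted p under 0.05 in edgeR. None of the markers of astrocytes (6 genes, 984 to 1137 cpm), oligodendrocytes (6 genes, 1720 to 2221 cpm), endothelial cells (6 genes, 327 to 442 cpm) or neurons (5 genes, 1284 to 1398 cpm) had such a p either. Dopaminergic markers were present in every library, as the labelled tissue requires, at 456 to 898 cpm in DJ-1+/+ and 707 to 947 cpm in DJ-1-/- mice. Of these markers 3 of 8 had an unadjusted p under 0.05 in edgeR, all higher in DJ-1-/- mice, beside 2.82% of all genes. Among them Pitx3 was at the floor, with 0 to 1 counts in DJ-1+/+ and 1 to 6 in DJ-1-/- libraries. The DJ-1+/+ sums were uneven, at 694, 898, 558 and 456 cpm in replicates 1 to 4, and replicate 2 was inside the DJ-1-/- range. Of the choroid plexus markers 5 of 6, of the cerebellar markers 3 of 5 and of the red blood cell markers (382 to 664 cpm) 1 of 5 had an unadjusted p under 0.05, all lower in DJ-1-/- mice. The high cerebellar sum was that of DJ-1+/+ replicate 1 alone (660 cpm), and the high choroid plexus sums were those of replicates 1 and 4 (292 and 642 cpm). In the other DJ-1+/+ libraries the choroid plexus sums, 87.5 and 91.9 cpm, were inside the DJ-1-/- range of 55.8 to 177 cpm. No defining marker of these lists was at 0 in all libraries. The part of these lists in the values of the members was not tested beyond leaving out the libraries named above.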

How the data were processed

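Midbrain RNA of 4 DJ-1+/+ and 5 DJ-1-/- mice was analysed from the deposited counts, which are whole UMI counts per gene without normalization. Per the labels' processing notes, the authors used fastp 0.20.0, STAR 2.7.3a, featureCounts 2.0.0 (Subread) and UMI-tools 1.0.0 with GRCm38. The annotation and strand setting are not given in the sources used here. Symbols and positions were taken from GENCODE M21 (GRCm38), which held 26576 of 26602 genes.

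A minimum of 10 counts, summed over the libraries, left 18127 genes, which were fitted with edgeR 4.0.16 (TMM, glmQLFit, glmQLFTest, genotype only) in R 4.3.3, and p-values were adjusted over all of them. Standard errors were back-calculated from the p-value and log2 fold change. Paralog shares were compared over 126 arrangements of the libraries in scipy 1.17.1. Alternatives were RLE factors, library totals, DESeq2 1.42.0, other filters, thinned counts, the replicate number as a block, Xist as a covariate or selection, and each library left out. Scripts were tested on simulated data.

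All 10 members, Park7, Actr3b, and the extremes of each pathway list were named. Actb, Gmfg and Pfn1 were named after their values were seen. The members and lists were chosen with earlier results of these data known. Each library is 1 animal, and counts of replicates differed by more than sampling noise in all 16 pairs of libraries (chi-square per degree of freedom 1.07 to 2.27). Intervals and floors cover counting error only where they rest on counts of 1 library.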

Additional observations from a re-analysis of the deposited data

Results flagged for a closer look

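The level of Actr3 in replicate 4 of DJ-1+/+ lay far from those of its group, at 95.9 cpm against 125 to 128 cpm. The gap to its nearest neighbour made up 0.908 of the range of the 4 libraries. Of 28 groups of libraries examined in this way this was the only 1 that stood out, where about 1 in 20, or 1.4 groups, would do so by chance. The same library had the most choroid plexus markers, at 642 cpm, and their part in this value was not tested.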

How the results depend on the processing

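No member had an adjusted p under 0.05 under any of 19 alternatives, and the log2 fold change of Arpc1a was negative in all of them, from -0.24 to -0.12. Arpc4 also kept its sign, and the other 8 members changed sign under at least 1. The number of genes with an adjusted p under 0.05 was 36 without a filter on low counts, 8 with the replicate block, 3 in the libraries with Xist, and 1 to 2 when each library was left out. Arpc1a was the 1 member with an unadjusted p under 0.05 in the libraries with Xist and without DJ-1+/+ replicates 1 and 4, the latter chosen after seeing the data. These 2 sets share most of their libraries. Leaving out single libraries gave 0 to 1 such member. The members' median was -0.055 in the libraries with Xist.

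Arpc2 turned to -0.0031 with RLE factors, -0.0030 with DESeq2, -0.0015 with filterByExpr, -7.4e-06 with the replicate block, -0.012 in the libraries with Xist and -0.0067 without DJ-1+/+ replicates 1 and 4. Arpc5 turned to -0.0094 in thinned counts. Arpc1b turned to -0.048 with Xist as a covariate, -0.22 in the libraries with Xist and -0.20 without DJ-1+/+ replicates 1 and 4. With each library left out, values ran from -0.10 to 0.018 for Actr2, -0.12 to 0.011 for Actr3, -0.11 to 0.16 for Arpc1b, -0.047 to 0.058 for Arpc2, -0.0069 to 0.15 for Arpc3, -0.0068 to 0.050 for Arpc5, -0.11 to 0.0085 for Arpc5l, and -0.0071 to 0.18 for Cttn. Arpc4 ran from -0.064 to -0.013 and the members' median from -0.033 to 0.0082. The difference in share ran from -4.66 to 0.151 points for Actr3b, 1.77 to 5.11 for Arpc1b and -2.32 to -0.134 for Arpc5l. The cause of these changes was not tested.

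Same-numbered mice of the genotypes correlated at 0.29, 0.04, -0.12 and -0.19 in their deviations, so the numbers were not taken to pair the mice, and with the replicate block no member was called. Cttn, Arpc3 and Arpc1b had the fewest counts and the largest standard errors of the 10 genes, at 0.16, 0.12 and 0.14 on the log2 scale. Their chi-square per degree of freedom within the genotypes was 2.51, 0.728 and 2.53. The parts of depth and of spread between mice in these standard errors were not tested.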
